A study of Mus musculus with 48 samples.

Results

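Astrocytes labelled as taken at postnatal day 14 (P14) were compared between 2 brain regions, the olfactory bulb and the hippocampus, by bulk RNA sequencing. The comparison holds 6 of the 48 mouse libraries of the series, 3 from the olfactory bulb and 3 from the hippocampus, chosen by their age and tissue labels. In the labels, hippocampus replicates 1 and 2 carry the suffix v2, which is not explained there, and replicate 3 does not. The series follows astrocytes of the olfactory bulb, cortex and hippocampus at P1, P7 and P14, and sets control animals against animals with a conditional knockout of the GABA-B receptor gene Gabbr1 at P28. For the P14 libraries the labels give the tissue, the cell type astrocyte and the age, and no genotype, strain, sex or treatment. They mention dissociation of the tissue and name no sort or marker by which astrocytes were taken. Nothing in the labels says that the 3 libraries of a region came from separate animals, so p-values measure the spread between these libraries. The regions were deposited in separate tables, normalised separately, and their libraries carry separate runs of library numbers. Region and library series cannot be told apart. Beside the P14 groups, this account uses 4 cortex libraries at P14, 3 libraries per region at P7 and at P1, and the P28 control libraries, 3 from the olfactory bulb and 2 from the hippocampus.

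Astrocytes are the glial cells that take up glutamate and GABA from synapses, buffer potassium, supply neurons with lactate and lipids, and secrete proteins that act on synapse formation. The olfactory bulb is rich in local GABAergic interneurons that are renewed through life from the ventricular wall, whereas the principal neurons of the hippocampus are glutamatergic pyramidal and granule cells. The GABA-B receptor is a G-protein-coupled receptor built of the subunits Gabbr1 and Gabbr2, of which Gabbr1 binds GABA and Gabbr2 couples to the G protein.

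Sequencing depth differed between the regions. Total reads ranged from 1773226 to 2669394 in the olfactory bulb and from 2539583 to 4248087 in the hippocampus, and the 45S ribosomal RNA gene Rn45s took 15.5 to 20% and 20.2 to 22.4% of them. Reads were found for 12698 to 13232 genes per olfactory bulb library and 12300 to 12432 per hippocampal library. Levels below are read counts without Rn45s, rescaled by median ratio over the 28 developmental libraries, and are not divided by gene length. Across genes, log2 levels correlated between 0.823 and 0.831 (Pearson) within the olfactory bulb group, between 0.817 and 0.837 within the hippocampal group, and between 0.743 and 0.773 across the groups. The biological coefficient of variation from edgeR was 49.3% in the olfactory bulb and 56.8% in the hippocampus, against 25.5% in the P14 cortex. In both regions replicates 1 and 2 held reads of the Y-linked gene Ddx3y, while replicate 3 held none and had the highest Xist level of its group, so each group holds 2 libraries with reads of Ddx3y and 1 without.

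Of 11835 genes tested, 733 (6.19%) differed between the regions at an adjusted p under 0.05 (limma, Benjamini-Hochberg). Of these, 400 (3.38% of those tested) were higher in the olfactory bulb and 333 (2.81%) were higher in the hippocampus. The median difference over the genes tested was 0.03 on the log2 scale. Rescaling by median ratio favours a small value here, so it does not show that the groups are alike. An unadjusted p under 0.05 was reached by 2090 genes, and 585 of the called genes also differed by at least 2-fold. The levels of the 2 groups did not overlap for 2681 genes (22.7%), called or not. They did not overlap for 731 of the 733 called genes, so a lack of overlap adds little to a call. The median level was 846 for genes called higher in the hippocampus, 237 for genes called higher in the olfactory bulb and 112 for all genes tested, and the plot of difference against level shows the same split. The count of genes higher in the olfactory bulb fell to 181, 181 and 202 when olfactory bulb replicate 1, 2 or 3 was left out, and 300 of the 733 genes were called in every one of the 6 leave-one-out fits (121 higher in the olfactory bulb and 179 higher in the hippocampus). Of the 733, edgeR and DESeq2 on the recovered reads both also called 658.

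**Figure D1:**
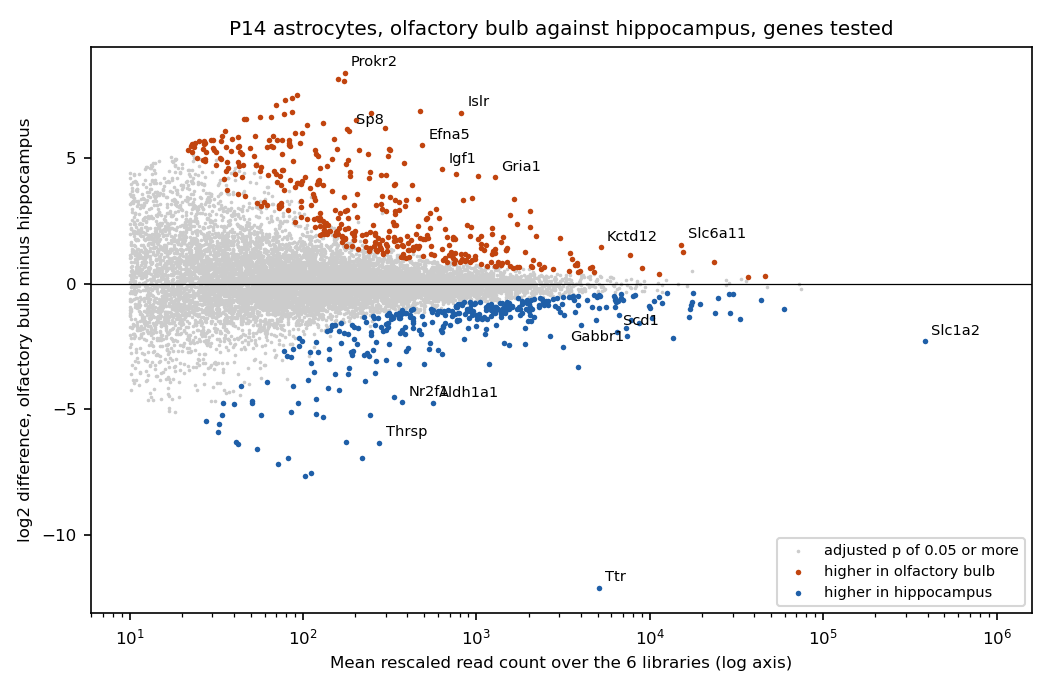
Log2 difference at P14 (vertical axis, olfactory bulb minus hippocampus) against the mean rescaled read count over the 6 libraries (horizontal axis, log scale), one point per gene tested. Orange points are the 400 genes called higher in the olfactory bulb, blue points the 333 called higher in the hippocampus and grey points the others. Slc1a2 lies farthest right and Ttr lowest.

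The GABA-B receptor subunit Gabbr1, the gene deleted elsewhere in the series, was lower in the olfactory bulb than in the hippocampus. Its level was 1027, 772 and 1014 in the olfactory bulb libraries and 4721, 5379 and 6142 in the hippocampal libraries, and the groups did not overlap. The difference was -2.53 ± 0.17 (log2, SE, limma adjusted p = 2.55e-09). The P14 cortex stood at 7305 ± 476 (SD, n = 4), nearer to the hippocampus. The second subunit, Gabbr2, showed no such separation: 1104, 1724 and 1118 in the olfactory bulb against 1011, 1279 and 1011 in the hippocampus, a difference of 0.23 ± 0.21 (adjusted p = 0.634, limma). The cortex held more Gabbr2, at 3494 ± 581 (SD, n = 4). Kctd12, an auxiliary subunit that sets the kinetics of the receptor, was higher in the olfactory bulb, at 7440, 7382 and 8023 against 3033, 2340 and 3035 (1.45 ± 0.13, adjusted p = 2.92e-07, limma). Of the 6 genes listed for the receptor 4 were tested, 1 called in each direction, and the median difference was 0.30. These calls of Gabbr1 and Kctd12 held in all 6 leave-one-out fits.

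Other genes of GABA handling differed in both directions. Of 9 tested genes of GABA uptake and metabolism, 3 were higher in the olfactory bulb and 2 in the hippocampus, with a median difference of 1.56. Slc6a11 (GAT3), the GABA transporter typical of astrocytes, stood at 21251, 23977 and 22920 in the olfactory bulb and at 8375, 7197 and 7608 in the hippocampus, without overlap (1.56 ± 0.10, adjusted p = 1.36e-09, limma). Of the enzymes that degrade GABA, Aldh5a1 was lower in the olfactory bulb by a log2 difference of -0.70 ± 0.15, whereas Abat ranged from 3800 to 4123 against 3280 to 4527. Maob, which takes part in making GABA from putrescine, was also lower there (-1.85 ± 0.43, adjusted p = 0.00976, limma). The GABA-synthesising enzymes Gad1 and Gad2, known as markers of GABAergic neurons, were higher in the olfactory bulb by 4.71 ± 1.26 and 2.32 ± 0.58. Both were lost in some leave-one-out fits (adjusted p of up to 0.207 for Gad1, without olfactory bulb replicate 2, and 0.149 for Gad2, without the same library). Among 11 tested subunits of the ionotropic GABA-A receptor 1 was called, higher in the olfactory bulb, and the median difference was 0.12.

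The label astrocyte was checked against 20 marker genes, and each had reads in both groups. Of the 20, 11 were higher in the hippocampus and 2 in the olfactory bulb, with a median difference of -0.57, and leaving out 1 library left 8 or 9 and 0 to 2 of them. The summed level of the list was 346333 to 378377 in the olfactory bulb and 871878 to 919729 in the hippocampus. A single gene made up most of that gap. Slc1a2 (GLT-1), the main glutamate transporter of mature astrocytes, had the highest read count of any gene in each of the 6 libraries. It stood at 126134, 145239 and 125648 in the olfactory bulb and at 612491, 665899 and 648523 in the hippocampus (-2.28 ± 0.06, adjusted p = 1.17e-16, limma). It took 2.59% ± 0.214 of the reads other than Rn45s in the olfactory bulb and 10.7% ± 0.456 in the hippocampus (SD, n = 3 each). The cortex was close to the hippocampus, with 11.8% ± 0.513 (SD, n = 4).

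The other astrocyte markers were tested as well. Ntsr2, a neurotensin receptor of astrocytes, stood at 486, 619 and 361 against 2397, 2633 and 2805 (-2.45 ± 0.21, adjusted p = 1.81e-07, limma). Clu, which encodes clusterin, was lower in the olfactory bulb by -1.76 ± 0.11, the glycolytic enzyme Aldoc by -1.33 ± 0.09, the fibroblast growth factor receptor Fgfr3 by -1.08 ± 0.17 and the intermediate filament Gfap by -1.02 ± 0.18. For each of these 4 genes the groups did not overlap, as for 731 of the 733 called genes. Slc1a3 (GLAST), the second glutamate transporter, went the other way, at 56550, 50854 and 45324 against 41595, 40613 and 41465. Its difference of 0.30 ± 0.08 (adjusted p = 0.0227, limma) and that of the bicarbonate transporter Slc4a4 (0.28 ± 0.08, adjusted p = 0.0326, limma) missed the threshold in most leave-one-out fits, with adjusted p of up to 0.137 and 0.211, both without olfactory bulb replicate 2. Neither was called on the values as deposited. The water channel Aqp4 ranged from 25744 to 31259 against 24965 to 26623 and the potassium channel Kcnj10 from 15147 to 16066 against 16691 to 17457, with differences of 0.14 and -0.11 and adjusted p of 0.435 and 0.566 (limma). Glul, Sox9, Aldh1l1, S100b and Gjb6 were not called either.

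Of 16 tested genes of ion, water and gap junction handling, 4 were higher in the hippocampus, among them the sodium pump subunit Atp1b2 (-0.80 ± 0.09) and, less firmly, Mlc1 and Gja1. The fifth called gene of that list was Slc4a4, and the median over the list was 0.01. With 1 library left out, Mlc1 was called in 1 of 6 fits (that without olfactory bulb replicate 1), with adjusted p of up to 0.213. Gja1 was called in 0 of 6, with adjusted p of 0.0538 to 0.122. Of the markers of radial glia and neural stem cells, which include Fabp7, 2 of 12 were higher in the olfactory bulb and 4 in the hippocampus. Fabp7, a fatty acid binding protein of immature glia, stood at 26620, 19490 and 19752 against 8164, 9254 and 9668 (1.27 ± 0.11, adjusted p = 2.39e-07, limma), and the filament protein Vim was higher there as well (1.10 ± 0.23). The matrix protein Tnc (-1.35 ± 0.22), Hopx, Nr2e1 and Thbs4 were lower in the olfactory bulb. Of these 4, Tnc alone was called in every leave-one-out fit, and the adjusted p of Thbs4 reached 0.217 without hippocampus replicate 1.

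Markers of other cell types were present and differed between the regions. The choroid plexus is the epithelium that secretes cerebrospinal fluid. Of its 12 markers 11 were tested, of which 7 were higher in the hippocampus and 0 in the olfactory bulb, with a median difference of -5.19. The summed level was 1305, 1331 and 1055 in the olfactory bulb, 20363, 17584 and 9859 in the hippocampus, and 485 to 1763 in the P14 cortex. Folr1, Kl, Sostdc1 and Slc4a5 had 0 reads in the olfactory bulb group. Only genes with a mean of at least 10 over the 6 libraries were tested. A gene with 0 reads in a group therefore entered through the other group and could be higher only there. The same limit applies to such genes in the lists below. Kl was at 416, 153 and 95.7 in the hippocampus, at least 89.7-fold higher when the olfactory bulb group is set at 3 reads. Sostdc1 was at least 32.1-fold higher by the same measure, and its call was lost without hippocampus replicate 1 (adjusted p = 0.0738, limma). Enpp2, another of these markers, was lower in the olfactory bulb by -2.08 (adjusted p = 3.98e-06, limma).

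Endothelial markers went the opposite way. Of 12 genes 11 were tested and 8 were higher in the olfactory bulb, with a median difference of 5.30. The summed level was 784, 2492 and 3708 in the olfactory bulb and 59.9, 315 and 38.9 in the hippocampus, so the olfactory bulb libraries were spread widely and replicate 1 was the lowest. Cldn5, the tight junction protein of brain capillaries, had 0 reads in the hippocampal group and stood at 24.3, 101 and 79.9 in the olfactory bulb, at least 34.9-fold higher. Ly6c1, Esam and Egfl7 also had 0 reads in the hippocampal group, and such genes could only be higher in the olfactory bulb. The list gave 2 calls in the fit without olfactory bulb replicate 3 and 3 in the fit without replicate 2. Markers of mural cells, which wrap these vessels, summed to 545 to 2314 against 249 to 440, with 2 of 6 tested genes higher in the olfactory bulb, among them Rgs5 (3.36 ± 0.54). In the olfactory bulb, replicate 1 was the lowest for the mural list as well.

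Some markers of 3 further cell types known from the olfactory bulb were called higher there. Of 9 tested markers of olfactory ensheathing cells, the glia of the olfactory nerve, 6 were higher in the olfactory bulb and 0 in the hippocampus (median 3.92), among them Apod (3.18 ± 0.56), Cdh19 (4.32 ± 0.60) and Fabp7. Mybpc1 had 0 reads in the hippocampus and was at least 55.0-fold higher in the olfactory bulb. Prss56 and Foxd3 also had 0 reads in the hippocampus, and such genes could only be higher in the olfactory bulb. The Mybpc1 call was lost without olfactory bulb replicate 1 (adjusted p = 0.0758, limma), and the count for the list was 3 without that library. Of 9 tested markers of olfactory bulb neurons 5 were higher (median 4.03), and the list summed to 857 to 1140 in the olfactory bulb and 68.9 to 173 in the hippocampus. Without olfactory bulb replicate 1, 2 or 3 the count was 3, 1 and 2, and without hippocampus replicate 1 it was 2. Of 10 neuroblast markers 3 were called higher (median 1.24), and 3 of the 10 had negative differences. The called genes included Dcx, the microtubule protein of migrating neuroblasts, at 2433, 4118 and 2396 against 236, 585 and 156 (3.37 ± 0.34, adjusted p = 1.56e-06, limma).

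General neuronal markers summed to 7027 to 10660 in the olfactory bulb and 1861 to 3157 in the hippocampus, with 2 of 11 tested genes called, Dcx and Map1b. Markers of hippocampal excitatory neurons summed to 508 to 722 and 807 to 1663. Of 10 tested, Prox1 and Neurod1 were higher in the hippocampus, called in 4 and 2 of the 6 leave-one-out fits (adjusted p of up to 0.0928 and 0.121, both without hippocampus replicate 3). Microglial markers summed to 628 to 976 and 541 to 1825, fibroblast markers to 1089 to 2499 and 1005 to 2684, ependymal markers to 93.7 to 199 and 90.7 to 248, and oligodendrocyte precursor markers to 2285 to 2396 and 1705 to 1830. In these 4 lists limma and edgeR called 0 genes. DESeq2 called 1 fibroblast and 1 precursor gene, and an unadjusted limma p under 0.05 was reached by 2 microglial, 3 fibroblast, 0 ependymal and 2 precursor genes. Markers of mature oligodendrocytes summed to 3826 to 4202 and 2850 to 4040, far below the 24472 to 41454 of the cortex, with 2 genes, among them Aspa, higher and Cnp lower in the olfactory bulb. With 1 library left out, Aspa was called in 2 of 6 fits, with adjusted p of up to 0.216 (without olfactory bulb replicate 3). Cnp was called in 0 of 6, with adjusted p of 0.0829 to 0.173. Haemoglobin genes had 0 reads in the 6 libraries. In bulk RNA, fewer cells of a type and less RNA per cell cannot be told apart, and how far these other cell types contribute to the differences below was not tested.

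**Figure D2:**
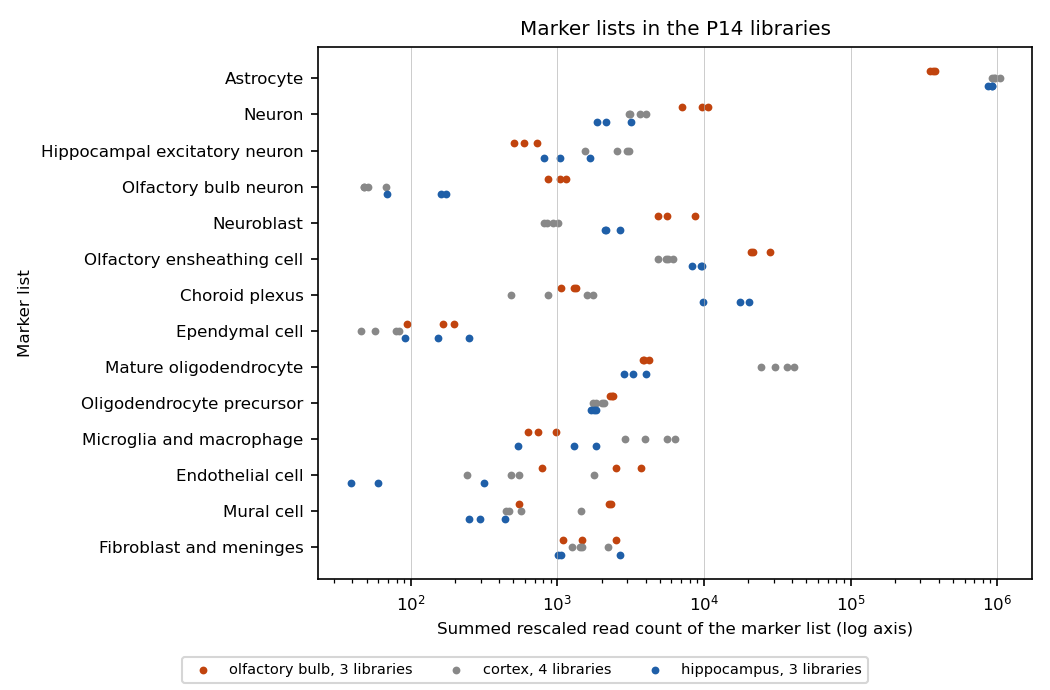
Summed rescaled read count of each marker list (horizontal axis, log scale) in the P14 libraries, one point per library, for the olfactory bulb (orange, 3 libraries), cortex (grey, 4) and hippocampus (blue, 3). Choroid plexus markers reach 9859 to 20363 in the hippocampus alone, and endothelial markers span 784 to 3708 in the olfactory bulb.

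The 12 named genes with the greatest differences towards the olfactory bulb, among called genes of at least the median level with separated groups, were Prokr2, Tex15, Cd93, Islr, Adgrf5, Abcc9, Prkab1, Sez6, Kdr, Sp8, Flt1 and Efna5. Prokr2, a receptor for prokineticins that is needed for the growth of the olfactory bulb, stood at 326, 487 and 232 and had 0 reads in the hippocampal group, at least 167-fold higher. Tex15, known from male meiosis, was at 503, 309 and 143 against 0 reads, at least 142-fold higher. Islr, a secreted immunoglobulin and leucine-rich repeat protein, was even across the olfactory bulb libraries, at 1912, 1530 and 1411 against 14.5, 18.4 and 8.97 (6.80 ± 0.45, adjusted p = 2.55e-09, limma). The same held for Sez6, at 524, 556 and 670 against 14.5, 3.68 and 5.98 (6.19 ± 0.67), and for the ephrin ligand Efna5, at 947, 1082 and 811 against 12.7, 64.4 and 8.97 (5.50 ± 0.58).

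A further 5 of the 12 genes are known from blood vessels: Kdr and Flt1, the receptors of vascular endothelial growth factor, Cd93 and Adgrf5 of endothelium, and Abcc9, a potassium channel subunit of pericytes. In the olfactory bulb each of the 5 was lowest in replicate 1, the library with the lowest sum of endothelial and mural markers. Kdr and Flt1 belong to the endothelial list and Abcc9 to the mural list, so these sums include them. Cd93 was at 93.7 there and at 1597 and 1135 in the other 2 libraries, and Kdr at 45.1 against 401 and 603. The calls of Abcc9 and Kdr were lost without olfactory bulb replicate 2 (adjusted p = 0.103 and 0.0826, limma) and without replicate 3 (0.0889 and 0.0935), that of Flt1 without replicate 3 (0.0747), and that of Prkab1, a regulatory subunit of AMP-activated kinase, without replicate 1 (0.0531). DESeq2 on the recovered reads did not call Kdr or Sp8.

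The 12 corresponding genes of the hippocampus were Ttr, Clic6, Thrsp, Nrn1, Slit2, Gas6, F5, Aldh1a1, Nr2f1, Prox1, Ephb1 and Npas2. Ttr, the thyroxine carrier of the choroid plexus, stood at 10.4, 0 and 0 in the olfactory bulb and at 13024, 11093 and 6435 in the hippocampus. The olfactory bulb group held 3 reads. The ratio of summed reads, each divided by the summed scaling factors of its group, was 4007, with a 95% counting interval of 1371 to 19431. Clic6 (ratio 178, interval 60.6 to 865) and F5 also belong to the choroid plexus list, and Htr2c, the serotonin receptor known from that epithelium, had 0 reads in the olfactory bulb and was at least 68.6-fold higher in the hippocampus.

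Thrsp, a lipogenic protein regulated by thyroid hormone, was even in the hippocampus at 483, 523 and 622 against 3.47, 2.40 and 19.4 in the olfactory bulb (-6.32 ± 0.75, adjusted p = 1.05e-05, limma). Its level in the cortex, 284 ± 29.4 (SD, n = 4), lay between them. Gas6, the ligand of the TAM receptors, was at 446, 443 and 502 against 3.47, 7.20 and 53.3 (-5.21 ± 0.77), and Aldh1a1, an enzyme that makes retinoic acid, at 508, 1233 and 1504 against 17.4, 74.3 and 33.9 (-4.75 ± 0.52). The cortex resembled the hippocampus in level for both, with 618 ± 91.5 and 2102 ± 310 (SD, n = 4). For Slit2 the cortex, at 24.7 ± 17.7, was near the olfactory bulb. The calls of Npas2, a circadian transcription factor, were lost without any one of the hippocampal libraries (adjusted p of 0.0546 to 0.126, limma), and that of Prox1 without hippocampus replicate 3 or olfactory bulb replicate 1.

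**Figure D3:**
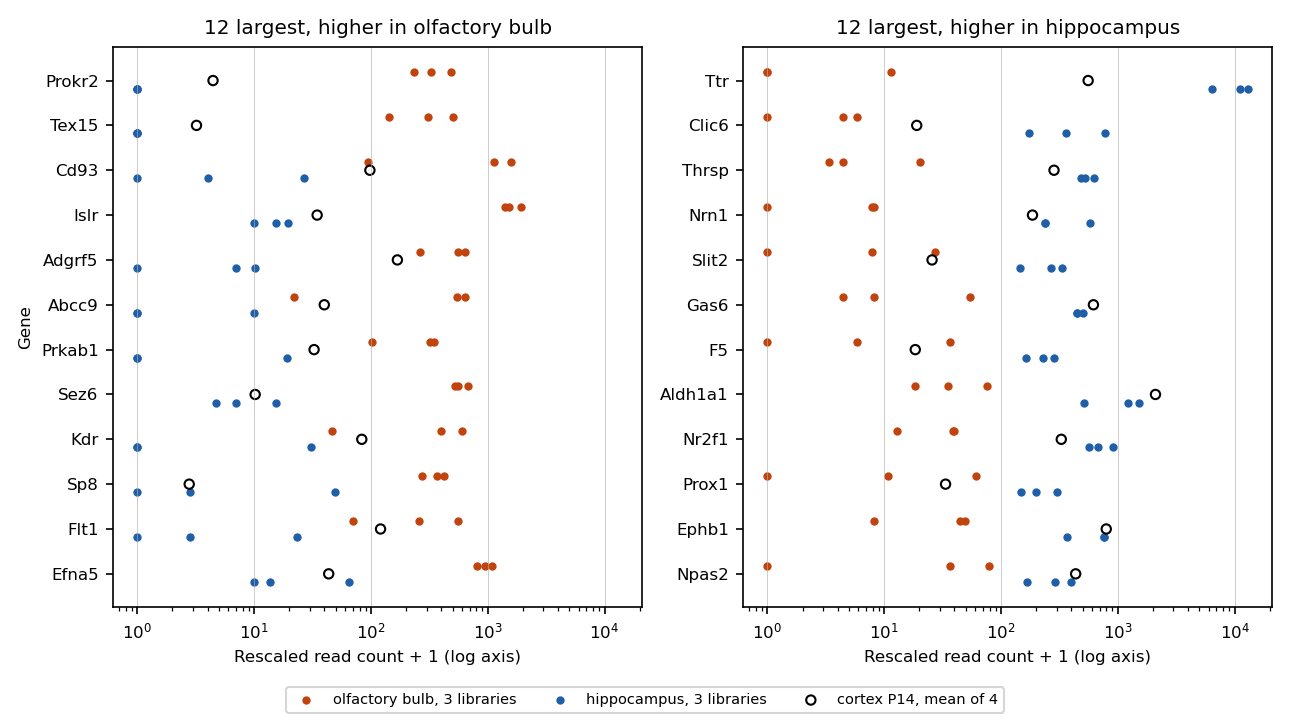
Rescaled read count plus 1 (horizontal axis, log scale) of the 12 genes with the greatest differences in each direction, one point per P14 library of the olfactory bulb (orange) and hippocampus (blue), and the mean of the 4 cortex libraries (open circle). Prokr2 and Tex15 lie at 0 reads in the hippocampal libraries, and Ttr reaches 6435 to 13024 in them.

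Transcription factors that pattern the forebrain differed by region. Of 11 tested factors of the olfactory bulb and ventral forebrain, 5 were higher in the olfactory bulb and 0 in the hippocampus, with a median difference of 1.88. Dlx1 and Dlx5, both called, had 0 reads in the hippocampus. They passed the filter on mean level through the olfactory bulb and could only be higher there. Dlx1, a homeodomain factor of GABAergic lineages, stood at 160, 237 and 123 and had 0 reads in the hippocampal group, at least 83.5-fold higher. Sp8 was at 368, 271 and 424 against 1.81, 47.8 and 0 (6.08 ± 1.08). Etv1, an ETS factor, differed by less but was detected in each library, at 2311, 2070 and 2336 against 769, 513 and 580 (1.87 ± 0.20, adjusted p = 3.15e-06, limma). Dlx5 had 0 reads in the hippocampus (at least 20.4-fold higher in the olfactory bulb), and its call was lost without any one olfactory bulb library (adjusted p of 0.116 to 0.150). Dlx6os1, a neuroblast marker that overlaps Dlx6 on the opposite strand, cannot be separated from it here because the sources used here do not say whether counting used strand. Sp8 and the Dlx genes are also known in olfactory bulb neurons and neuroblasts, whose marker sums were higher in the olfactory bulb as given above, and their part in these differences was not tested.

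Of 13 tested factors of the dorsal forebrain, 3 were higher in the hippocampus and 1 in the olfactory bulb (median -0.60). Nr2f1 (COUP-TFI) stood at 38.2, 11.99 and 38.7 in the olfactory bulb and at 679, 902 and 571 in the hippocampus (-4.69 ± 0.51, adjusted p = 3.71e-06, limma). Emx2 was at 122, 98.3 and 70.2 against 562, 699 and 329 (-2.41 ± 0.40), and Lhx2 at 1076, 645 and 937 against 1738, 2114 and 1860 (-1.13 ± 0.21). Zic1 was higher in the olfactory bulb (2.88 ± 0.60), a call that was lost without olfactory bulb replicate 1 or 2 (adjusted p = 0.0607 and 0.0502) and with DESeq2. The astrocyte factors Nfia, Sox9 and Nfix were not called, and Nfib was lower in the olfactory bulb by -0.48 ± 0.12, which was lost in most leave-one-out fits (adjusted p of up to 0.131, without olfactory bulb replicate 3).

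Of 14 tested glutamate genes, 8 were higher in the olfactory bulb and 3 in the hippocampus, with a median difference of 0.51. All 4 AMPA receptor subunits, which form the fast glutamate-gated channels, were higher in the olfactory bulb. Gria1 stood at 2495, 1986 and 2766 against 120, 162 and 102, without overlap (4.24 ± 0.27, adjusted p = 1.76e-09, limma). Gria3 was at 652, 739 and 680 against 45.4, 86.5 and 129 (3.10 ± 0.40), Gria4 at 840, 645 and 411 against 113, 110 and 38.9 (2.93 ± 0.45), and Gria2 ranged from 4451 to 5233 against 1921 to 2197 (1.23, adjusted p = 4.88e-06). The cortex was near the hippocampus for Gria1, at 193 ± 26.2, and for Gria3, at 113 ± 25.3 (SD, n = 4). The NMDA receptor subunit Grin3a was higher in the olfactory bulb as well (1.36), while Grin2c was lower (-1.83 ± 0.43), a call lost without hippocampus replicate 1 and without olfactory bulb replicates 1 and 2 (adjusted p of up to 0.0722). The metabotropic receptor Grm3 stood at 3075, 2688 and 2193 against 6874, 7357 and 7105 (-1.44 ± 0.14, adjusted p = 5.79e-07, limma), whereas Grm5, which couples to calcium release in young astrocytes, ranged from 1974 to 2311 against 1491 to 1950 and was not called. The amino acid transporter Slc38a3 was higher in the olfactory bulb by 0.67, and the remaining calls were Slc1a3 and Slc1a2, described above, and Slc38a5, which was lost without 5 of the 6 libraries in turn (adjusted p of up to 0.224, without olfactory bulb replicate 2). Leaving out 1 library left between 4 and 7 of the 8 calls, with 4 without olfactory bulb replicate 1 and 5 without olfactory bulb replicate 2 or hippocampus replicate 1. AMPA receptor subunits are also expressed by neurons. The sum of general neuronal markers was higher in the olfactory bulb, with 2 of 11 tested genes called, Dcx and Map1b, as given above. Of 9 tested markers of olfactory bulb neurons 5 were called higher there (median 4.03), and of 10 neuroblast markers 3. The part of neurons was not tested.

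The axon guidance list had the most genes tested and also the most called. Of 32 tested, 11 were higher in the olfactory bulb and 4 in the hippocampus (median 0.75). The share called was 46.9%, against 6.19% over all genes tested. Among the ligands, the semaphorin Sema5a stood at 1888, 2120 and 1651 against 299, 16.6 and 173 (4.27 ± 0.63, adjusted p = 0.000132, limma) and the ephrin Efnb2 at 507, 314 and 237 against 38.1, 12.9 and 8.97 (4.26 ± 0.66). Slit2 differed the other way, at 6.94, 26.4 and 0 against 267, 143 and 335 (-5.29 ± 1.03). Among the receptors, Robo2, which binds Slit proteins, ranged from 1571 to 2780 in the olfactory bulb and 413 to 443 in the hippocampus (2.20, adjusted p = 2.5e-06), and the netrin receptor Unc5d from 494 to 833 and 8.97 to 79.8 (3.98, adjusted p = 0.000249). The ephrin receptor Epha4 was higher in the olfactory bulb (1.86), whereas Ephb1 was at 48.6, 43.2 and 7.26 against 370, 758 and 769 (-4.52 ± 0.62). The netrin receptor Dcc and the plexin Plxnb1 were higher in the hippocampus. With 1 library left out, Sema3a was called in 0 of 6 fits, with adjusted p of 0.0621 to 0.234. Dcc was not called without hippocampus replicate 1 (adjusted p = 0.117) or olfactory bulb replicate 2 (adjusted p = 0.0734), and the count for the olfactory bulb was 7 without any one of its libraries.

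Secreted proteins that act on synapses were split. Of 16 tested, 2 were higher in the olfactory bulb and 3 in the hippocampus. Chrdl1, which promotes the maturation of synapses through AMPA receptor subunits, stood at 4296, 3501 and 2660 against 827, 918 and 1002 (1.90 ± 0.19, adjusted p = 8.78e-07, limma), and the cortex at 3004 ± 470 was near the olfactory bulb. Hevin, encoded by Sparcl1, stood at 43280, 39043 and 36706 against 82387, 76513 and 78019 (-0.996 ± 0.071, adjusted p = 6.79e-09, limma). Its relative Sparc was at 2315, 3194 and 3100 against 10163, 11719 and 14097 (-2.06 ± 0.14). The glypicans Gpc4, Gpc5 and Gpc6 were not called, with differences of -1.20, -0.23 and -0.65. The call of Wnt5a, the second gene higher in the olfactory bulb, was lost without hippocampus replicate 1 or olfactory bulb replicates 1 and 3 (adjusted p of up to 0.151).

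Growth factors and matrix genes were also tested. Igf1, insulin-like growth factor 1, stood at 1395, 835 and 1392 in the olfactory bulb against 98.0, 64.4 and 17.9 in the hippocampus and 48.4 ± 21.1 in the cortex (4.57 ± 0.48, adjusted p = 2.64e-06, limma), while its binding protein Igfbp5 was lower there (-1.33 ± 0.22). Of 24 tested Wnt genes 5 were higher in the olfactory bulb and 1 in the hippocampus, and the 2 firmest were secreted modulators, Sfrp1 (1145, 1098 and 1222 against 321, 405 and 305, 1.76 ± 0.24) and Dkk3 (333, 254 and 324 against 1613, 1095 and 1459, -2.18 ± 0.25). The Wnt count for the olfactory bulb was 1, 4 and 3 without its replicates 1, 2 and 3 and 2 without hippocampus replicate 1. Of 14 matrix genes 3 were higher in the olfactory bulb, including fibronectin (Fn1, 361, 2410 and 1580 against 14.5, 95.7 and 102), and 2 in the hippocampus, including the link protein Hapln1 (-1.26 ± 0.11). Fn1, which is also made by vessel cells, was lowest in olfactory bulb replicate 1, as the endothelial markers were. Gli3, a transcription factor of the hedgehog pathway, was the 1 called gene of 9 tested in that pathway, at 462, 516 and 424 against 1693, 1350 and 1525 (-1.70 ± 0.21, adjusted p = 2.28e-05, limma). Of 15 tested BMP genes, limma, edgeR and DESeq2 called 0, with 4 at an unadjusted limma p under 0.05, and the receptor Bmpr2 ranged from 8419 to 10607 against 7986 to 9554.

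Called lipid genes lay on 1 side. Of 21 genes of cholesterol and fatty acid synthesis, uptake and export, all tested, 13 were higher in the hippocampus and 0 in the olfactory bulb, with a median difference of -1.15, and 10 to 14 were called when 1 library was left out. Most of these genes are known targets of the sterol-responsive SREBP factors. Scd1, the stearoyl-CoA desaturase, stood at 3300, 2602 and 2374 in the olfactory bulb against 10093, 10393 and 10155 in the hippocampus (-1.90 ± 0.13, adjusted p = 4.2e-09, limma), and Scd2 ranged from 17118 to 19051 against 37867 to 43369 (-1.15). Of the cholesterol pathway, Hmgcs1, which feeds the first steps, was at 6527, 5746 and 5008 against 16662, 12780 and 14737 (-1.35 ± 0.12, adjusted p = 2.08e-07, limma). Msmo1, a late step, was at 396, 341 and 303 against 976, 1157 and 1074 (-1.63 ± 0.24), and Cyp51 (-1.33), Idi1 (-1.26), Lss (-1.21) and Fdft1 (-1.18) were called in the same direction. Sqle and Fasn just missed the threshold (adjusted p = 0.0531 and 0.0612, limma). Apoe, the main lipid carrier made by astrocytes, was lower in the olfactory bulb by -0.75 (adjusted p = 3.71e-05, limma).

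The 250 bases before the transcription start were read for the called lipid genes from the RefSeq promoter table (GRCm38.p6), which matched 8 of the 13. They are shown because these genes were called in 1 direction, and SREBP factors are known to bind sterol elements with the help of the CCAAT-binding factor NF-Y. The 3 with the greatest differences follow, 5′ to 3′ on the gene's strand, with matches to TCACNCCAC and to CCAAT on either strand in capitals. The matches did not overlap. Msmo1 lies at chr8:64733579-64733828 on the minus strand, Hmgcs1 at chr13:119690101-119690350 on the plus strand and Cyp51 at chr5:4104698-4104947 on the minus strand.
Msmo1: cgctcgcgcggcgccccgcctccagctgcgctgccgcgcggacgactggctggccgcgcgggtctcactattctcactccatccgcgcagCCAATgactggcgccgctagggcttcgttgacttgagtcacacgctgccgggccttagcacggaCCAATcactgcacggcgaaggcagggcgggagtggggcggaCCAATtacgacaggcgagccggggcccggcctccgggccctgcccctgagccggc
Hmgcs1: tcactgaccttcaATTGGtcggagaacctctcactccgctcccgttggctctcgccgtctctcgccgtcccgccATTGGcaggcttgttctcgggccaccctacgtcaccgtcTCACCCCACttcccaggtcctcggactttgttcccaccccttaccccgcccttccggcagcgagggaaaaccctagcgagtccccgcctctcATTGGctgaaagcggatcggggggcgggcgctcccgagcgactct
Cyp51: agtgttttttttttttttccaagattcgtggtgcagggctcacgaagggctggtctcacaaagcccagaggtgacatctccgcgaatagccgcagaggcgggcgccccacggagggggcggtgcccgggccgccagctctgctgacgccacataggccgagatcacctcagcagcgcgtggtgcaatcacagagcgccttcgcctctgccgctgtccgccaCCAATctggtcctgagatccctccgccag
CCAAT was found in 6 of the 8 promoters (75%) and in 36.8% of the 9052 promoters of tested genes that the table holds. It was also found in 9 of 13 promoters of the whole lipid list, called or not (69.2%). Among all genes called higher in the hippocampus, 35.4% of 246 promoters held it. Hmgcs1 and Msmo1 each held 3 copies of CCAAT, and Cyp51 held 1. TCACNCCAC was found in 1 of the 8, that of Hmgcs1, where it begins 137 bases before the start, and in 1.02% of those 9052 promoters. Of the other motifs read, GGGCGG was found in 87.5% of the 8 and 60.8% of the 9052, AGGTCA in 25% and 9.77%, and TAATTA in 0% and 2.35%. A match describes the sequence and does not show that a factor binds there.

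Other metabolic lists held called genes in both directions. The share of tested genes called was 19% for glycolysis and glycogen, 18.2% for serine and glycine and 30.8% for retinoid and thyroid hormone handling. Over all genes tested it was 6.19%. Of 21 tested genes of glycolysis and glycogen, 3 were higher in the hippocampus, namely Aldoc, Gapdh and the glycogen-targeting subunit Ppp1r3c (-0.95 ± 0.18), and 1 in the olfactory bulb, the lactate transporter Slc16a1 (503, 955 and 796 against 85.3, 134 and 281, 2.29 ± 0.40). The Gapdh call was lost without 4 libraries (adjusted p of up to 0.145, without olfactory bulb replicate 2). In the serine and glycine list of 11, Psat1, a step of serine synthesis, was higher in the hippocampus (-1.30 ± 0.20), and Slc6a9, the glycine transporter GlyT1, was higher in the olfactory bulb (687, 799 and 840 against 325, 190 and 185, 1.77 ± 0.30). Of the 13 tested genes of retinoid and thyroid hormone handling, 3 were higher in the hippocampus: Aldh1a1, the thyroid hormone transporter Slco1c1 (-1.81 ± 0.23) and Dio2, which activates the hormone (-0.76 ± 0.12). Stra6, a retinol receptor, was the 1 gene higher in the olfactory bulb, a call lost without 4 libraries in turn (adjusted p of up to 0.291, without olfactory bulb replicate 3). Of 20 cell cycle genes 1 was called and of 8 immediate early and stress genes 1, namely Ccna2 and Egr1, both higher in the olfactory bulb and both lost in leave-one-out fits (adjusted p of up to 0.191 without replicate 2 and 0.214 without replicate 3 of the olfactory bulb). Among 8 tested genes of reactive astrocytes, Gfap and Cd44 were higher in the hippocampus and Vim and S1pr3 in the olfactory bulb. The calls of Cd44 and S1pr3 were lost in leave-one-out fits (adjusted p of up to 0.102 without hippocampus replicate 2 and 0.101 without olfactory bulb replicate 2).

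**Figure D4:**
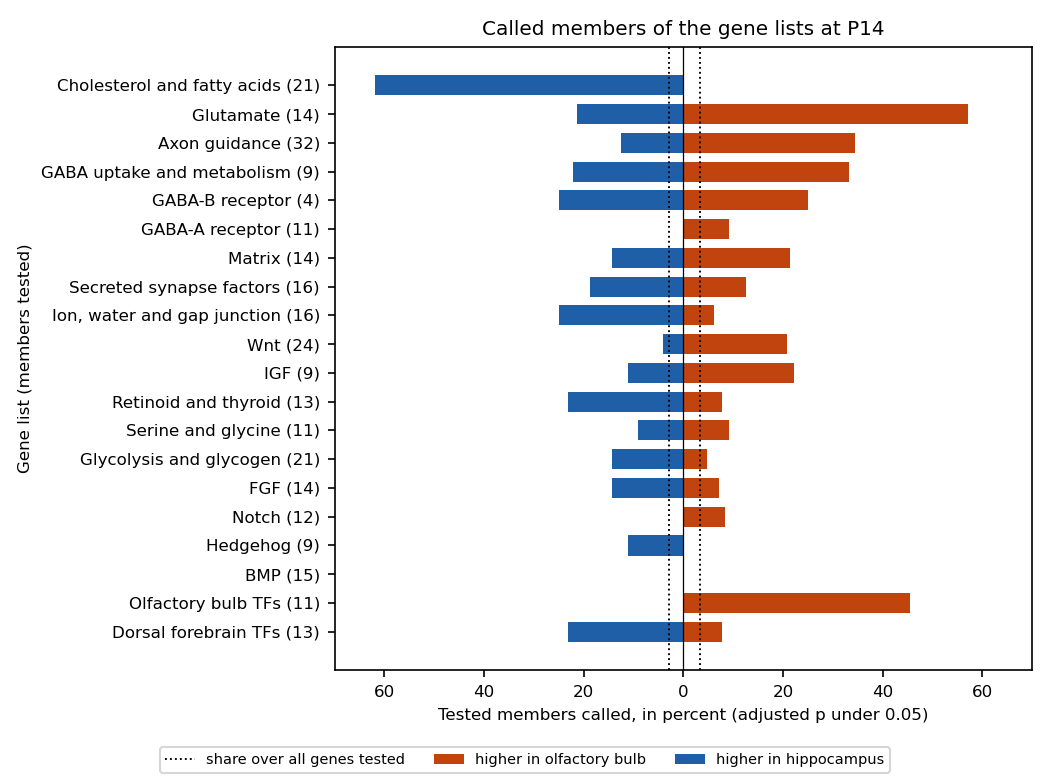
Percent of the tested members of each gene list that were called at P14, to the right for genes higher in the olfactory bulb (orange) and to the left for genes higher in the hippocampus (blue), with the number tested in parentheses. Dotted lines mark the shares over all genes tested, 3.38% and 2.81%. The lipid list has called genes on the hippocampal side alone, and the olfactory bulb transcription factors on the other side alone. Of the latter, Dlx1 and Dlx5 had 0 reads in the hippocampus and could only be higher in the olfactory bulb.

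The P14 differences were set beside those of the same regions at earlier ages, which come from other libraries. Of the 731 called genes with a value, 566 (77.4%) had the same sign at P7 and 512 (70%) at P1, against 58.1% and 54.5% of the genes that were not called. The difference between regions itself changed from P7 to P14 in 1559 of 12664 genes (12.3%; 8.13% towards the olfactory bulb and 4.18% towards the hippocampus) and from P1 to P14 in 1526 (12%; 8.4% and 3.65%), tested as an interaction with limma over 18 libraries. The biological coefficient of variation was 13.1 to 21.9% in the younger groups, below that at P14, and with weights per group these counts were 336 and 599. Of the genes called at P14, the interaction with P7 was called in the direction of the P14 difference in 292 and in the other direction in 69. These genes were chosen by their P14 difference in the same libraries, which favours the first direction, so no conclusion is drawn from this split. The gap in astrocyte markers was wider earlier, with medians of -1.50 at P1 and -2.23 at P7 against -0.57 at P14.

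The mean level of Gabbr1 was higher in the olfactory bulb at P1 and higher in the hippocampus at P7 and P14. Its level in the olfactory bulb was 920 ± 95.9 at P1 and 927 ± 47.1 at P7 (SD, n = 3 each), close to its P14 level. In the hippocampus it was 642 ± 22.1 at P1 and 2928 ± 540 at P7. The region difference at P14 was more negative than at P7 by -0.89 (adjusted p = 0.00897) and than at P1 by -3.05 (adjusted p = 5.61e-08, limma interaction). Slc1a2 stood at 3646 ± 538 and 9071 ± 2541 in the olfactory bulb at P1 and P7 and at 10620 ± 1461 and 94202 ± 20932 in the hippocampus. Its P7 difference of -3.40 was wider than at P14 (interaction 1.11, adjusted p = 0.00912). Fabp7 changed sides: at P7 it was 8075 ± 2271 in the olfactory bulb and 20198 ± 3482 in the hippocampus, a log2 difference of -1.34 that stood at 1.27 at P14 (interaction 2.62, adjusted p = 2.1e-05). Kctd12 changed sides too (-0.78 at P7, interaction 2.23, adjusted p = 0.000245). For Nr2f1 the difference was already -5.82 at P1 and -4.48 at P7, and neither interaction was called (adjusted p = 0.229 and 0.860).

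The P28 control libraries gave a further comparison of the regions. There 509 of 11773 genes (4.32%) were called, 298 higher in the olfactory bulb (2.53%) and 211 in the hippocampus (1.79%). With 2 hippocampal libraries this count rests on each of them, and it was 34 without replicate 1 and 52 without replicate 2. Without olfactory bulb replicate 1, 2 or 3 it was 290, 1368 and 254. Olfactory bulb replicate 2 is the library in which Rn45s took 0.476% of the reads. Of 715 genes called at P14 and tested at P28, 549 (76.8%) had the same sign, against 56.7% of the genes not called at P14, and 195 were also called in the same direction and 3 in the opposite one. By direction, 339 of 385 genes higher in the olfactory bulb and 210 of 330 higher in the hippocampus had the same sign, a difference that was not tested. Without olfactory bulb replicate 2, 551 of 711 kept their sign, 296 were called in the same direction and 14 in the opposite one.

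Of the P14 results, those of Gabbr1, Slc6a11, 3 AMPA receptor subunits and the choroid plexus were called in the same direction at P28. Gabbr1 was at 313, 180 and 188 in the olfactory bulb and 669 and 694 in the hippocampus (-1.63, adjusted p = 0.0302, limma). Gabbr2, not called at P14, was higher in the olfactory bulb at P28, at 518, 516 and 365 against 128 and 160 (1.68, adjusted p = 0.0218). Gria1 stood at 3063, 1990 and 1578 against 48.3 and 96.6 (4.94, adjusted p = 0.000799), with Gria3 (3.46) and Gria4 (3.56) called as well, and Slc6a11 at 14056, 9511 and 13144 against 1535 and 1878 (2.83, adjusted p = 0.00169). Islr (4.88), Chrdl1 (4.08), Kctd12 (3.07) and Fabp7 (3.56) were called in the same direction as well. Ttr was at 1.13, 0 and 6.59 against 109586 and 52077, and all 7 choroid plexus genes called at P14 were called in the same direction. Of the 7 endothelial genes called at P14 and tested at P28, limma and edgeR called 0 there, 0 had an unadjusted p under 0.05 and 3 had the same sign. Of the 13 lipid genes called at P14, 8 had the same sign at P28, 2 had an unadjusted p under 0.05 and limma and edgeR called 0. There the median of the list was -0.08 with Scd1 at 0.63 (adjusted p = 0.329). Slc1a2 was at 87928, 82958 and 51463 against 115751 and 121242, a difference of -0.72 that was not called (adjusted p = 0.328). Of the 13 astrocyte markers called at P14, 8 had the same sign at P28 and 2 were called in that direction. The median over the 20 astrocyte markers was 0.33 at P28. Without olfactory bulb replicate 2 it was 0.44, and 5 of the 13 kept their sign.

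**Figure D5:**
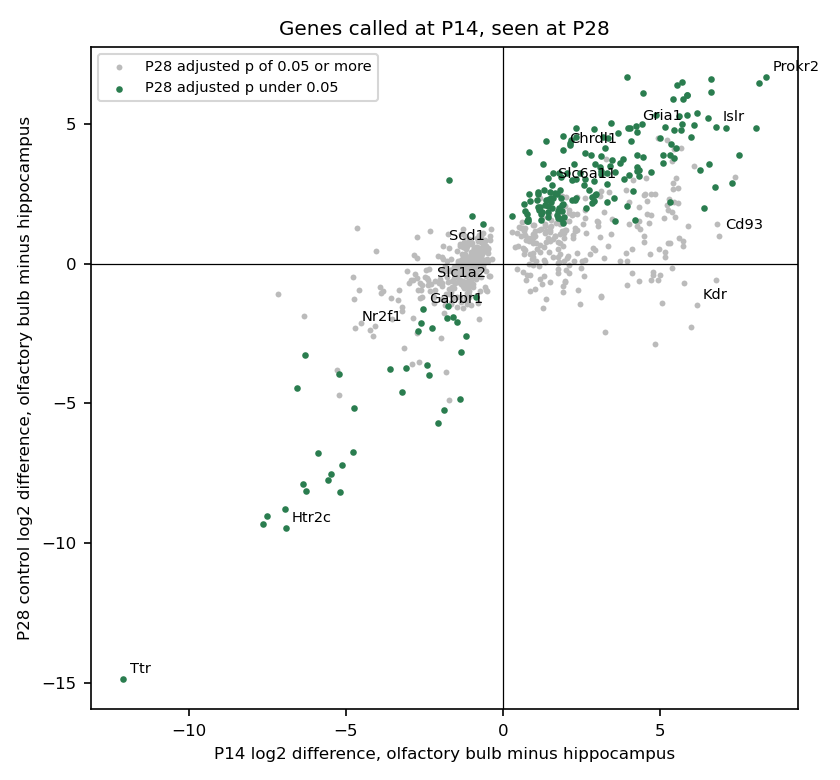
Log2 difference between olfactory bulb and hippocampus at P28 in control libraries (vertical axis, 3 against 2 libraries) and at P14 (horizontal axis), for the 715 genes called at P14 and tested at P28. Green points are genes with an adjusted p under 0.05 at P28. Ttr is low in the olfactory bulb at both ages, while Kdr is high at P14 and not at P28.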

How the data were processed

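The deposited values are a normalised signal per gene, in which the authors divided read counts by one factor per library, since in each column used every value is a whole multiple of one step (100% within 0.01). The submitters' processing notes name STAR 2.5.0a, DESeq2 1.20.0, FastQC, MultiQC and mm10, and per the labels' protocols libraries were made with the Nugen Trio kit from picogram to nanogram amounts of RNA. The counting program and strand setting are not given in the sources used here. Dividing by that step gave reads, Rn45s was dropped, the tables were joined by row order, and 28 developmental columns were rescaled together by median ratio. The P28 control columns (5) were rescaled on their own. The 27 gene symbols turned into dates were restored from the table that keeps them.

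Genes with a mean of at least 10 were tested on log2(value + 1) with limma 3.58.1 (mean-variance trend, R 4.3.3), with Benjamini-Hochberg adjustment over all genes tested and a threshold of 0.05. Fold changes on this scale understate low genes. The filter uses the mean over all libraries of a comparison, so a gene with 0 reads in a group passes it through the other groups. Count tests on recovered reads used edgeR 4.0.16 and DESeq2 1.42.0. Bounds use a floor of 3 reads over a group, and intervals (95%) cover counting error only. The fit was tested on simulated data in which all groups of a comparison had the same spread. That test therefore does not cover the unequal spread between ages in the interactions. The comparison and the 43 gene lists were chosen with earlier results of these data known. Named genes are Gabbr1, Gabbr2, the 12 greatest called differences in each direction (mean of at least 112, the median of genes tested, groups apart, no predicted genes), up to 4 called genes per list and direction or the 2 of highest mean, and 4 per direction and age interaction. Other list members were named after their values were seen. Alternatives changed the pseudocount, filter, scaling, test, samples in the fit, depth and single libraries. Some genes that this rule names are not reported here.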

Additional observations from a re-analysis of the deposited data

Results flagged for a closer look

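The difference between regions at P14 was tested against that at P7 and at P1 as an interaction over 18 libraries with limma. The genes with the greatest called changes are given here in log2 units. The fit shares its estimate of spread between ages, although libraries varied more at P14. Whether each of these genes stays called with weights per group is not given here. The genes Adgrf5, Cd93, Kdr and Abcc9, known from vessels, moved towards the olfactory bulb. Against P7 they changed by 8.76, 8.76, 8.20 and 7.87 (adjusted p of 9.95e-05, 0.000813, 0.00131 and 0.00158), and against P1 by 8.34, 7.59, 8.82 and 7.75. At P7 they were lower in the olfactory bulb, with Kdr at 50.6 ± 9.52 there and 218 ± 84.9 in the hippocampus (SD, n = 3 each), whereas in the P14 hippocampus Kdr had reads in 1 library. These 4 genes were lowest in olfactory bulb replicate 1 at P14, as the endothelial marker sum was. Kdr is itself part of that sum, and Abcc9 is part of the mural list.

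Genes that moved towards the hippocampus included Ttr, by -6.15 against P7 and -11.58 against P1, which was at 584 ± 808 in the P7 hippocampus, a spread wider than its mean. Nrn1, a neuritin that promotes neurite growth, moved by -5.49 and -5.90, and Gas6 by -4.26 and -5.23. Neurod1, a factor of granule neurons, moved by -6.04 against P7, where it stood at 423 ± 72.9 in the olfactory bulb and 179 ± 59.9 in the hippocampus. Sv2b, a synaptic vesicle protein, moved by -7.69 against P1, where it was at 433 ± 89.2 and 30.4 ± 17.98. At P14 its own difference of -3.76 was not called (adjusted p = 0.0649, limma).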

How the results depend on the processing

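The total of 733 genes stayed within 1.5 times of that value under other pseudocounts, filters, scalings, array weights, equal depth, edgeR and DESeq2. It was 194 without the mean-variance trend (129 higher in the olfactory bulb and 65 in the hippocampus), 1523 with the cortex in the fit (791 and 732) and 2499 in the fit of 18 libraries (1475 and 1024). Leaving out 1 library gave 411 to 679 genes, 181 to 406 of them higher in the olfactory bulb and 223 to 277 in the hippocampus. Without an olfactory bulb library most calls were therefore on the hippocampal side. The age interactions gave 336 (P7) and 599 (P1) with weights per group, and 1688 to 2005 and 1660 to 1873 with 1 P14 library left out. The P28 controls gave 34 to 1368 genes with 1 library left out. Of the 124 called genes named here, 120 remained called with edgeR, 121 with DESeq2, 123 with TMM, 112 with quantile normalization and 41 without the trend. Quantile normalization set Slc1a2 to 0.00, because it gives the gene that ranks first in each library one value. With 1 library left out, genes that were not called changed sign: Olig1 ranged from -0.04 (without hippocampus replicate 2) to 0.17, Col1a2 from -0.03 (without hippocampus replicate 1) to 2.57, Xist from -1.83 (without olfactory bulb replicate 3) to 4.21, and Ddx3y from -2.68 (without hippocampus replicate 3; -1.25 and -1.18 without olfactory bulb replicates 1 and 2) to 3.93. No paired analysis was possible because the labels give no replicate numbers shared by the groups. The P28 control libraries carry running library numbers that no label ties to an animal, so these were not used to pair regions. For other moved counts the cause was not tested. Low depth limits what can be said of genes near the minimum level.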
